A study of Mus musculus with 130 samples.

Results

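Liver transcripts were compared between C57BL/6J male mice fed a diet with 2% carbonyl iron and C57BL/6J male mice fed an elevated iron diet of 500 ppm, with 3 mice in each group. These 6 livers were chosen by their labelled diet alone, out of 130 liver samples in all, of which 15 formed the diet study in C57BL/6J mice. Carbonyl iron is a pure powdered iron used to load rodents through the diet. The remaining groups of the diet study, each of 3 C57BL/6J males, ate chow, a sufficient diet of 50 ppm, or 2% carbonyl iron with cellulose named as the fibre. They entered the same fit, and the last 2 of these diets gave a second comparison with no mouse in common. All 6 mice compared were of 1 inbred strain and 1 sex, and RNA was taken from 20 mg of tissue of the large liver lobe. Age, feeding time and batch were not given in the sources used here, and replicate numbers, given in order of accession, only name the mice.

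The liver is the main store of iron and the source of hepcidin, the peptide hormone (gene Hamp) that lowers iron entry into plasma by removing the exporter ferroportin (gene Slc40a1) from cell surfaces. Sinusoidal endothelial cells release BMP6 when iron is high, and BMP receptors on hepatocytes then act through SMAD proteins on Hamp, Id1, Smad7 and related genes. Kupffer cells, the resident macrophages of the liver, take up ageing red cells and return their iron. The male mouse liver also makes large amounts of major urinary proteins (Mups), small pheromone carriers whose genes depend on the pulsed growth hormone of males.

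Expression is given as CPM, counts scaled to a common library total after TMM factors, which correct for differences in library composition. A gene was called when the adjusted p of edgeR's quasi-likelihood test was under 0.05, and changes are log2 fold changes of 2% iron over 500 ppm. The standard error given with them was derived from that test, as the absolute log2 change divided by the square root of its F statistic. The labels give 3 mice to a diet. The p-values rest on the spread between mice within diets, estimated over all 15 diet libraries and not the 6 compared alone. In whole liver RNA, fewer cells of a type and less RNA per cell cannot be told apart.

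The library of 500 ppm mouse 2 stood apart from those of its group. It held 20356911 counts, and the other 14 diet libraries held 10420494 to 14177174. On the first principal component of all 15 libraries, which carried 48.4% of the variance, it lay at -0.66. The other 500 ppm mice lay at 37.3 and 35.1, and the 2% iron mice at -43.0, -29.4 and -35.3. The labels give no reason to remove it, so results are given with all 6 mice and, where they differ, without it. The 12 hepatocyte genes summed to between 112607 and 119240 CPM in the 2% iron livers and between 100362 and 116606 CPM in the 500 ppm livers. Alb had by far the most counts of them in every mouse, so the sums mostly follow Alb. Of the 12, 1 was called higher and 4 lower with all 6 mice, and 1 and 6 without 500 ppm mouse 2. Over all genes tested, 6.59% were called higher and 4.75% lower with all 6 mice. Of 13 genes of the exocrine pancreas, 6 were at 0 in all 6 mice. The 4 Y-linked genes tested were not called, with 162 to 184 CPM summed in the 2% iron mice and 173 to 180 CPM in the 500 ppm mice.

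The background against which the gene groups are read was 894 higher calls (6.59%) and 644 lower calls (4.75%) in 2% iron, together 1538 (11.3%) of the 13560 genes that entered the test. The median log2 change over all of them was 0.00051. More than 2-fold, 462 genes rose and 189 fell. Without 500 ppm mouse 2, 2203 of 13821 genes (15.9%) were called, 1214 (8.78%) higher and 989 (7.16%) lower. Both fits called 1400 genes in the same direction, and 620 of the 1538 were called whichever of the 6 mice was left out.

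**Figure D1:**
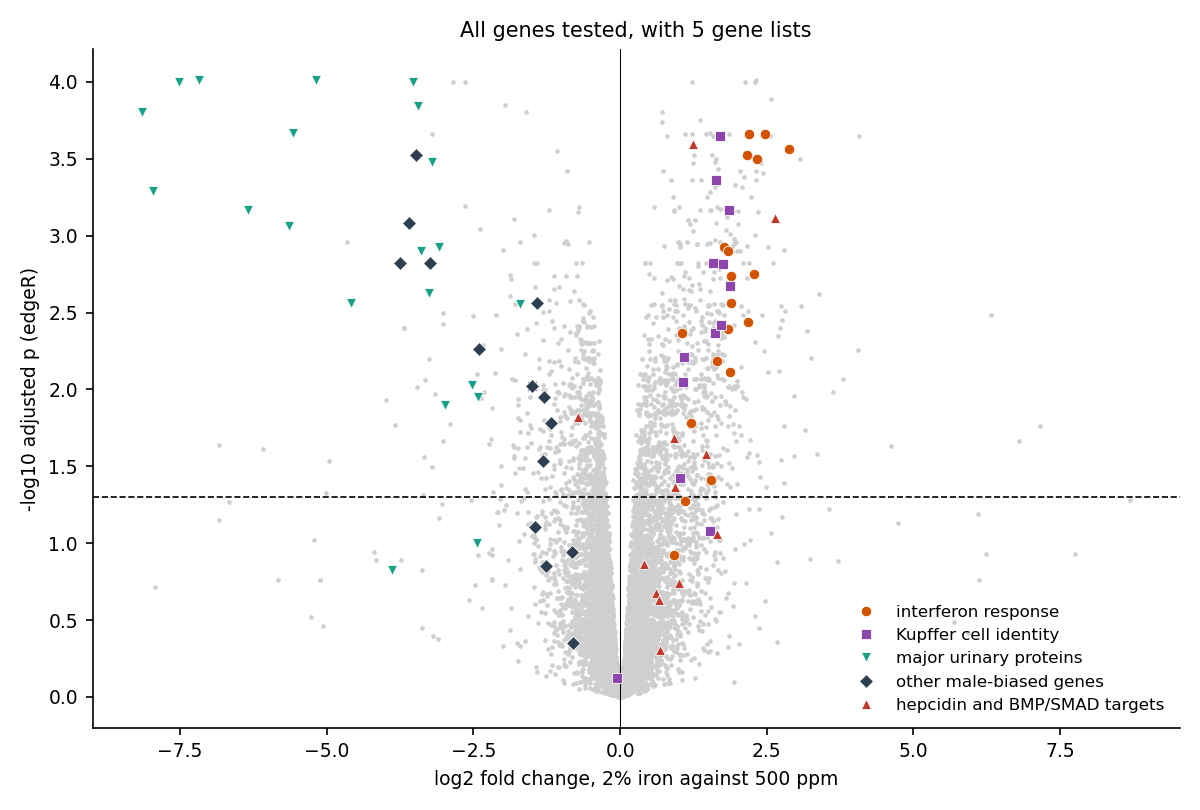
Each point is a gene tested with all 6 mice, with the log2 fold change of 2% iron against 500 ppm on the x axis and -log10 of the adjusted p of edgeR on the y axis. The dashed line is the adjusted p of 0.05. Interferon response and Kupffer cell genes sit on the right and Mup and other male-biased genes on the left; C6, on both the Kupffer and the male-biased list, is drawn with the male-biased genes.

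Interferon-stimulated genes encode antiviral effectors and the factors that amplify their own induction. All 19 tested were higher in every liver on 2% iron than in every liver on 500 ppm. Over all 13560 genes tested, 4053 did not overlap between the groups, in either direction. Of the 19 interferon genes, 17 were called higher and none lower, against 6.59% of all genes called higher. Their median log2 change was 1.87. Their summed level ran from 734 to 916 CPM in 2% iron and from 179 to 306 CPM in 500 ppm. Igtp and Mx1 lost their calls when single mice were left out (Igtp without 2% iron mouse 2 or 500 ppm mouse 1 or 3, Mx1 without 2% iron mouse 1 or 2 or 500 ppm mouse 1 or 3), and the other 15 kept theirs.

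Rsad2 encodes viperin, an enzyme that blocks viral replication, and lies at chr12:26442746-26456452 of GRCm38. Its level was 130.0, 129 and 77.1 CPM in the 2% iron mice and 12.5, 20.5 and 12.5 CPM in the 500 ppm mice. It rose 7.32-fold (log2 2.87 ± 0.34, adjusted p = 0.00027). Irf7, the factor that drives the later wave of interferon genes, stood at 129, 145 and 131 CPM against 22, 61.1 and 25.2 CPM (log2 1.89 ± 0.32, adjusted p = 0.0027). The 500 ppm mouse 2 was the highest of its group for both, and still below each 2% iron mouse. Oasl2, a relative of the double-stranded RNA sensors, was at 24.6, 37 and 32.6 CPM against 5.33, 7.06 and 4.38 CPM (log2 2.47 ± 0.28, adjusted p = 0.00022). Ifit1, whose protein binds viral RNA ends, was at 54.5, 80.4 and 54 CPM against 11.5, 16.9 and 8.47 CPM (log2 2.34 ± 0.28, adjusted p = 0.00032). Isg15, a ubiquitin-like modifier, was at 15, 22.4 and 19.3 CPM against 2.84, 7.36 and 5.17 CPM (log2 1.84 ± 0.28, adjusted p = 0.0013), and Usp18, the protease that removes it, rose by a log2 change of 2.20 ± 0.25 (adjusted p = 0.00022).

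Mx2 and Gbp2, GTPases of the same response, were the 2 list genes not called, with log2 changes of 1.10 ± 0.34 (adjusted p = 0.053) and 0.92 ± 0.36 (adjusted p = 0.12). In both genes 500 ppm mouse 2 lay close to the 2% iron mice, at 9.77 CPM of Mx2 where the other 500 ppm mice had 4.04 and 3.23 CPM. Without that mouse all 19 were called higher, with a median log2 change of 2.44. Outside the list, 3 genes related to this response stood among the 10 smallest adjusted p-values or the 15 largest rises of the whole table. Oasl1 rose from 15 ± 3.6 to 75.4 ± 7.42 CPM (SD, n = 3; adjusted p = 9.7e-05). Slfn8 and Slfn1, of the Schlafen family, rose by log2 changes of 2.31 ± 0.22 and 3.39 ± 0.57 (adjusted p = 0.0001 and 0.0024).

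Interferon signals reach these genes through the interferon-stimulated response element, whose core is GAAA, any 2 bases, and GAAA again. RefSeq promoters of GRCm38.p6, the 250 bases before the start of each gene, were searched for this core on both strands, counting overlapping matches. It occurred in 8 of the 13 interferon list genes with a promoter entry (61.5%) and in 936 of 27025 genes overall (3.46%). A match is a description of the letters, and binding was not measured. The promoters of 3 genes named above are printed 5′ to 3′ in the direction of transcription to show where the core lies, in capitals. They are chr12:26456453-26456702 on the minus strand for Rsad2, chr19:34640639-34640888 on the plus strand for Ifit1 and chr4:156200819-156201068 on the minus strand for Isg15.
Rsad2: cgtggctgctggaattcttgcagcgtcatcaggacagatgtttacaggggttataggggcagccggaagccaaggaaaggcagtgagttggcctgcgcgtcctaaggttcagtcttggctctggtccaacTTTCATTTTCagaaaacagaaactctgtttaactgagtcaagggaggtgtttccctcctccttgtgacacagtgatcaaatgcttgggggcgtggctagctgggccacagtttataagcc
Ifit1: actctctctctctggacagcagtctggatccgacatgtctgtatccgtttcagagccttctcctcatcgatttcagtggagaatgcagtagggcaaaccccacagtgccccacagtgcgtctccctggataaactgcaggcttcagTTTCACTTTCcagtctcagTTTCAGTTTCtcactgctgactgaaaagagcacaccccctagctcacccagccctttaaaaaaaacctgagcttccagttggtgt
Isg15: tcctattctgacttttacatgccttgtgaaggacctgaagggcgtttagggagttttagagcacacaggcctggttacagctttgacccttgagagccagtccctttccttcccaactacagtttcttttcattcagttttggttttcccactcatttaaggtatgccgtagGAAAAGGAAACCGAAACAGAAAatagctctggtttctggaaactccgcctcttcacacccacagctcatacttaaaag
Rsad2 holds 1 match and Ifit1 holds 2, all on the opposite strand, so that they read as TTTC runs. Isg15 holds 3 overlapping matches in 1 run. No match was found in Irf7, Oasl2, Ifit2, Cmpk2 or Ifi44, which were all called higher.

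Genes of Kupffer cells were also higher on 2% iron. Of the 14 list genes tested, 11 rose and 1 fell, with a median log2 change of 1.60. Their summed level was 705 to 759 CPM in the 2% iron mice and 403 to 506 CPM in the 500 ppm mice. Clec4f, a lectin found almost only on Kupffer cells (chr6:83644542-83656187), was at 145, 154 and 144 CPM against 35.9, 62.6 and 43.6 CPM (log2 1.63 ± 0.21, adjusted p = 0.00044). Timd4, a receptor for dying cells that marks the long-lived embryonic Kupffer cells, was at 12.7, 13.7 and 12.8 CPM against 2.92, 4.94 and 2.66 CPM (log2 1.86 ± 0.25, adjusted p = 0.00068). Csf1r, the growth factor receptor on which macrophages depend, was at 118, 95.5 and 105.1 CPM against 27.8, 38.4 and 31.6 CPM (log2 1.70 ± 0.20, adjusted p = 0.00023). The 2% iron mice differed little among themselves for these genes, and no 500 ppm mouse reached them.

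Cd5l, a secreted macrophage protein, rose by a log2 change of 1.72 ± 0.31 (adjusted p = 0.0038), and Cd163, the receptor that clears haemoglobin bound to haptoglobin, by 1.62 ± 0.30 (adjusted p = 0.0043). Spic, the factor that specifies red cell-recycling macrophages, was at 3.39, 4.53 and 3.84 CPM against 1.46, 2.61 and 1.58 CPM. It was called with all 6 mice (log2 1.02 ± 0.29, adjusted p = 0.038) but not when any single mouse other than 500 ppm mouse 2 was left out. Marco, a scavenger receptor, was at 37.2, 37.6 and 25.3 CPM in 2% iron and at 3.18, 25.4 and 4.45 CPM in 500 ppm, so that 500 ppm mouse 2 overlapped the 2% iron group. Its log2 change was 1.53 ± 0.54 (adjusted p = 0.083) with that mouse and 3.11 (adjusted p = 0.00013) without it. C6, a complement gene on both the Kupffer and the male-biased list, fell from 199 ± 73.3 to 70 ± 9.48 CPM (SD, n = 3; log2 -1.51 ± 0.33, adjusted p = 0.0095).

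Of 20 genes of phagocyte activation, 8 rose and none fell. Cd68, a lysosomal glycoprotein of macrophages, was at 18.1, 16.6 and 16.6 CPM against 2.49, 6.05 and 4.67 CPM (log2 1.92 ± 0.26, adjusted p = 0.00069). Ctss, the cathepsin of antigen-presenting cells, and Lyz2, lysozyme, rose by log2 changes of 1.71 ± 0.23 and 1.33 ± 0.21 (adjusted p = 0.00067 and 0.0015). Of 16 genes of monocytes, antigen presentation and chemokines, 3 rose with all 6 mice and 7 without 500 ppm mouse 2. Ccl6, a macrophage chemokine, was at 32.6, 24.6 and 23.4 CPM against 3.35, 11.5 and 3.73 CPM (log2 2.06 ± 0.36, adjusted p = 0.0029). Among 23 lysosome genes 5 rose and 1 fell. Hexa, a subunit of the lysosomal hexosaminidase, went from 28.7 ± 2.05 to 47.3 ± 3.35 CPM (SD, n = 3; adjusted p = 0.00018).

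EdgeR called none of 6 neutrophil granule and none of 6 lymphocyte genes tested, of which 0 and 1 had an unadjusted p under 0.05, and DESeq2 and limma called none. Without 500 ppm mouse 2 edgeR called none of 7 and none of 8, with 3 and 1 at an unadjusted p under 0.05. Over all 12 genes of each list, tested or not, the summed levels were 5.97 to 17.3 CPM and 6.48 to 11.8 CPM in 2% iron and 1.01 to 12.5 CPM and 4.64 to 6.19 CPM in 500 ppm. Of 17 genes of the sinusoidal endothelium, Cdh5, the junction cadherin, and Stab2, a scavenger receptor, rose and Wnt9b fell. Cdh5 kept its call in every fit with a mouse left out (25.2 ± 2.58 to 50.5 ± 1.49 CPM, SD, n = 3; adjusted p = 0.0011). Stab2 lost it without 2% iron mouse 1 or 3 or 500 ppm mouse 1 or 3, and Wnt9b without any mouse other than 500 ppm mouse 2. EdgeR, DESeq2 and limma called none of 6 bile duct genes tested, 2 of them with an unadjusted p under 0.05 in edgeR. All 9 bile duct genes in the table summed to 29.7 to 31.4 CPM against 34.5 to 35.98 CPM.

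The stellate cell and fibrosis list gave 3 rises among 20 genes and no fall, and 6 rises among 22 without 500 ppm mouse 2. Col4a1 and Col6a1, chains of basement membrane and microfibrillar collagen, rose by log2 changes of 0.78 ± 0.16 and 0.98 ± 0.21 (adjusted p = 0.007 and 0.0086). Col1a1, the main chain of scar collagen, was at 13.2, 6.39 and 27.8 CPM against 6.19, 13.3 and 18.2 CPM, with the groups overlapping (adjusted p = 0.7).

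**Figure D2:**
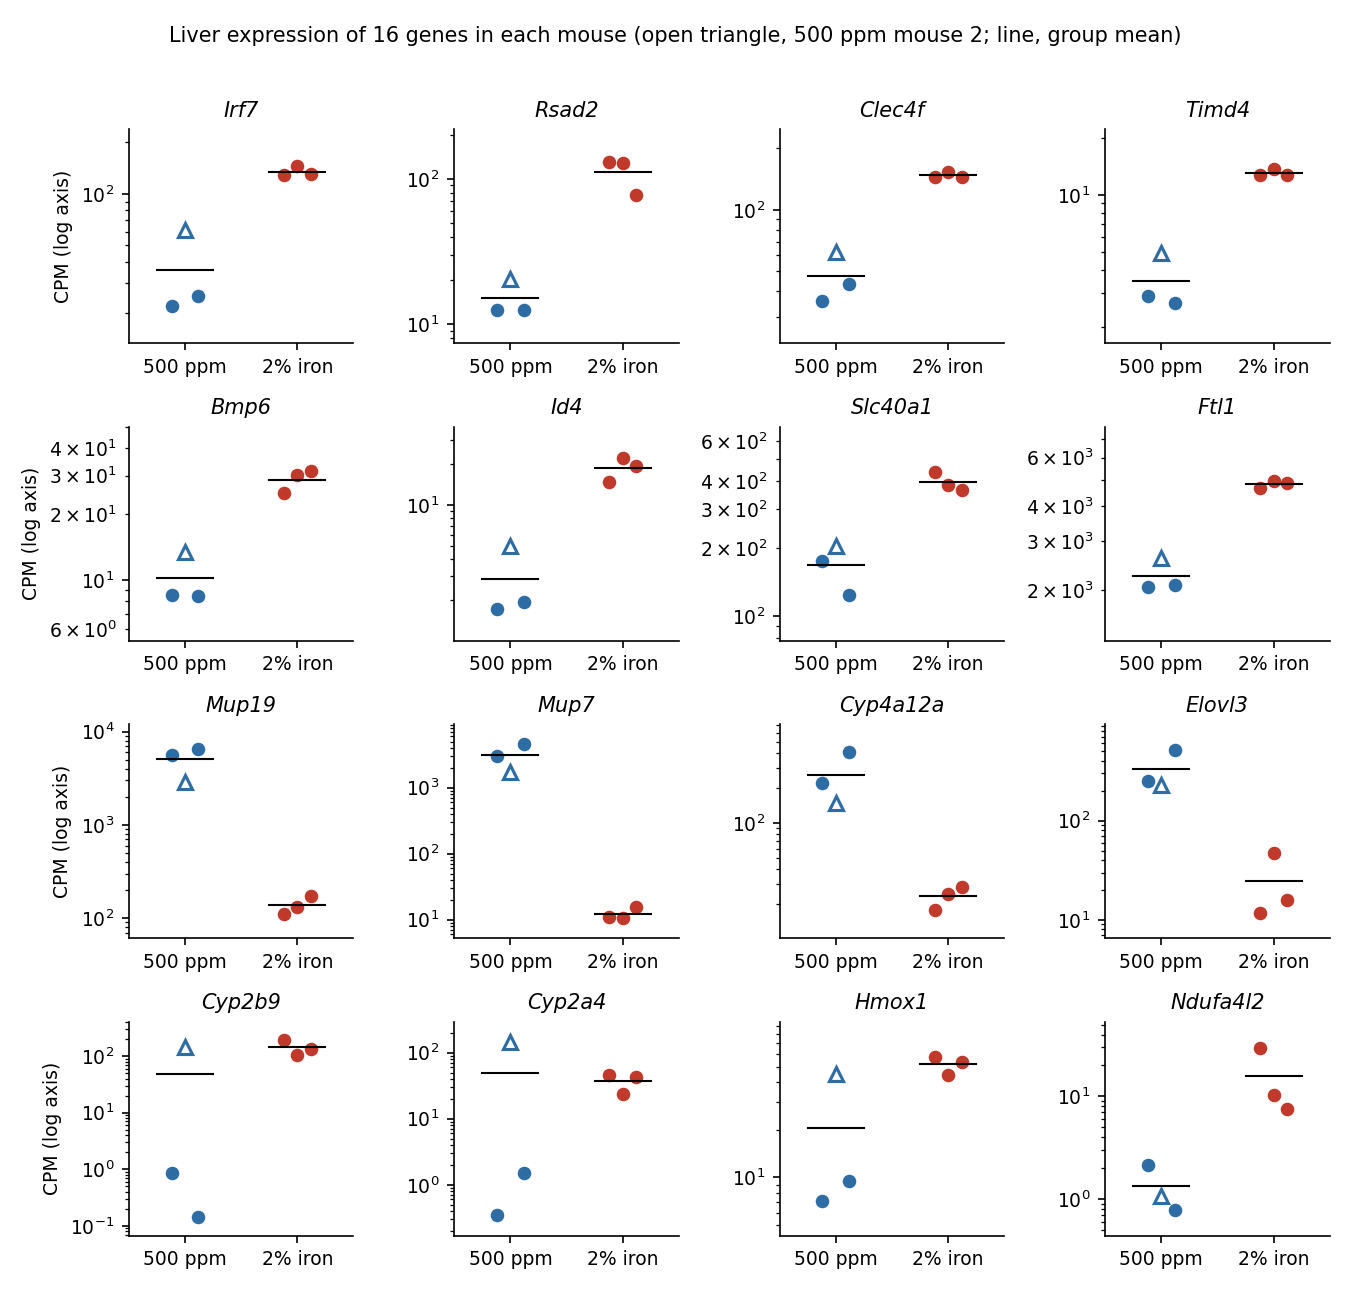
CPM on a log axis for 16 genes, with each point a mouse, the line the mean of its group of 3, and an open triangle for 500 ppm mouse 2. For Irf7, Rsad2, Clec4f, Timd4, Bmp6, Id4, Slc40a1, Ftl1 and Ndufa4l2 all 2% iron mice lie above all 500 ppm mice, for Mup19, Mup7, Cyp4a12a and Elovl3 all lie below, and for Cyp2b9, Cyp2a4 and Hmox1 the open triangle lies with or above the 2% iron mice.

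Bmp6, the ligand that reports iron load (chr13:38345107-38500302), was at 25, 30.1 and 31.4 CPM against 8.6, 13.5 and 8.47 CPM and rose 2.79-fold (log2 1.48 ± 0.22, adjusted p = 0.0011). It was the only call with all 6 mice among 16 genes for BMP ligands, receptors and iron sensors. Bmp2, the other endothelial ligand, averaged 20.8 ± 6.27 and 21.7 ± 2.34 CPM (SD, n = 3; adjusted p = 0.93), and Tfr2 and Hfe, the hepatocyte sensors of transferrin iron, had log2 changes of -0.13 ± 0.13 and 0.04 ± 0.09 (adjusted p = 0.59 and 0.85).

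Of 12 hepcidin and BMP/SMAD target genes, 5 rose and 1 fell, with a median log2 change of 0.92, and 2 of these calls held whichever mouse was left out. Id4, an inhibitor of helix-loop-helix factors, was at 14.8, 22.1 and 19.5 CPM against 1.72, 4.98 and 1.94 CPM (log2 2.64 ± 0.37, adjusted p = 0.00077). Atoh8, a helix-loop-helix factor that acts on Hamp, was at 62.7, 75.2 and 71 CPM against 22.6, 32 and 33.2 CPM (log2 1.24 ± 0.14, adjusted p = 0.00025). Id4 and Atoh8 were those 2. Smad7, the inhibitor that feeds back on the pathway, was at 46, 61.3 and 56.9 CPM against 10.7, 32.8 and 14.8 CPM (log2 1.47 ± 0.39, adjusted p = 0.026). Its call was lost without 2% iron mouse 2 or 3 or 500 ppm mouse 1 or 3. The calls of Smad9 and Bambi (log2 0.93 ± 0.28 and 0.91 ± 0.23) were lost without any mouse other than 500 ppm mouse 2. Rnf43, a brake on Wnt receptors, fell by 0.72 on the log2 scale (adjusted p = 0.015), a call lost without 500 ppm mouse 3.

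Hamp itself was not called. It was at 685, 770.3 and 726 CPM in 2% iron and at 483, 665 and 285 CPM in 500 ppm (log2 0.61 ± 0.30, adjusted p = 0.21). The groups did not overlap, and the 500 ppm mice spread more than 2-fold. Without 500 ppm mouse 2 the log2 change of Hamp was 0.92 and its adjusted p 0.059. Id1, the target most often read beside Hamp, was at 31.9, 35.4 and 31.8 CPM against 4.13, 21.4 and 4.52 CPM. It was not called with all 6 mice (log2 1.66 ± 0.59, adjusted p = 0.087) and was called without 500 ppm mouse 2 (log2 2.92, adjusted p = 0.0042). Without that mouse 8 of the 12 genes were higher and 1 lower. Tmprss6, the protease that cleaves the BMP co-receptor hemojuvelin, was at 320.1 ± 26 against 388 ± 25.9 CPM (SD, n = 3; log2 -0.28 ± 0.09, adjusted p = 0.061, and 0.035 without 500 ppm mouse 2).

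Iron handling genes moved in both directions, with 4 of 20 higher and 3 lower. Slc40a1, ferroportin (chr1:45908068-45926523), was at 437, 384 and 362 CPM against 176, 206 and 124 CPM (log2 1.23 ± 0.16, adjusted p = 0.00044). Ftl1, the light chain of ferritin (chr7:45457944-45459884), was at 4655, 4947 and 4863 CPM against 2059, 2615 and 2080 CPM (log2 1.10 ± 0.12, adjusted p = 0.00022). Fth1, the heavy chain that oxidizes iron, averaged 872 ± 58.7 and 898 ± 22.2 CPM (SD, n = 3; log2 -0.04 ± 0.11, adjusted p = 0.86). On the length-scaled TPM measure the mean level of Ftl1 was 6353 in 2% iron and 2821 in 500 ppm, and that of Fth1 was 1324 and 1298. Both ferritin chains have many processed pseudogenes, so the split of reads between near-identical copies is uncertain.

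Cp, the ferroxidase ceruloplasmin, and Trf, plasma transferrin, rose by log2 changes of 0.44 ± 0.10 and 0.51 ± 0.15 (adjusted p = 0.013 and 0.037). The call of Cp was lost without 500 ppm mouse 3, and that of Trf without any mouse other than 500 ppm mouse 2. Steap2, a reductase of ferric iron, fell from 18.6 ± 1.72 to 12 ± 1.07 CPM (SD, n = 3; adjusted p = 0.0034). Steap3 and Aco1, the iron-responsive aconitase, fell by 0.58 and 0.34 on the log2 scale. Steap3 lost its call without 2% iron mouse 2 or 3 or 500 ppm mouse 1, and Aco1 without 2% iron mouse 1 or 3 or 500 ppm mouse 1 or 3. Tfrc, transferrin receptor 1, was at 21.4, 19.2 and 28.9 CPM against 12.1, 15.1 and 10.6 CPM (log2 0.87 ± 0.32, adjusted p = 0.097).

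Of 19 heme genes 2 rose and 1 fell with all 6 mice, and 3 rose and 3 fell without 500 ppm mouse 2. Alad, an early enzyme of heme synthesis, fell from 69.7 ± 1.71 to 50 ± 1.98 CPM (SD, n = 3; adjusted p = 0.011). Hmox1, the oxygenase that frees iron from heme, was at 57.8, 44 and 53.4 CPM against 7.14, 44.6 and 9.48 CPM. The 500 ppm mouse 2 lay within the 2% iron range, and the log2 change was 1.30 ± 0.48 (adjusted p = 0.098) with it and 2.63 (adjusted p = 6.5e-05) without it.

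Of 23 targets of NRF2, the regulator of antioxidant genes, 3 rose and none fell, and without 500 ppm mouse 2 the counts were 2 and 1. Gstm3, a glutathione transferase, was at 57.6, 58.8 and 74.2 CPM against 20.6, 28.8 and 29.3 CPM (log2 1.27 ± 0.25, adjusted p = 0.0063). Nqo1, the quinone reductase, was at 10.2, 9.32 and 8.69 CPM against 3.87, 5.13 and 4.31 CPM (log2 1.07 ± 0.28, adjusted p = 0.026), a call lost without any mouse other than 500 ppm mouse 2. The third, Gstm2, lost its call whichever mouse was left out. Of 15 ferroptosis regulators 2 rose and 2 fell, none of them in every fit with a mouse left out, and 3 rose and 3 fell without 500 ppm mouse 2. Gpx4, the peroxidase that protects membranes, fell by 0.42 on the log2 scale (adjusted p = 0.035), lost without 2% iron mouse 2 or 3 or 500 ppm mouse 1 or 3.

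Of 18 p53 targets 7 rose and 1 fell. Btg2, an antiproliferative gene, was at 48.8, 36.6 and 69 CPM against 4.9, 11.3 and 5.24 CPM (log2 2.80 ± 0.42, adjusted p = 0.0012). Phlda3, a repressor of AKT, went from 0.466 ± 0.217 to 1.91 ± 0.227 CPM (SD, n = 3; log2 2.00 ± 0.42, adjusted p = 0.0089), and Perp, a desmosomal protein, fell by 0.46 on the log2 scale (adjusted p = 0.0034). Those 3 were called in every fit with a mouse left out. Cdkn1a, the cell cycle inhibitor p21, was at 163, 116 and 77.2 CPM against 100.5, 29.8 and 27.1 CPM and overlapped between the groups (adjusted p = 0.27). Of 15 proliferation genes 1 rose, Rrm2 of ribonucleotide reductase (log2 1.28 ± 0.35, adjusted p = 0.032), a call lost without 2% iron mouse 1 or 3 or 500 ppm mouse 1 or 3. Without 500 ppm mouse 2, 4 of 18 proliferation genes were called higher, Rrm2 with Ccnd1, Mcm5 and Mcm6, and the median log2 change went from 0.69 to 1.19.

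**Figure D3:**
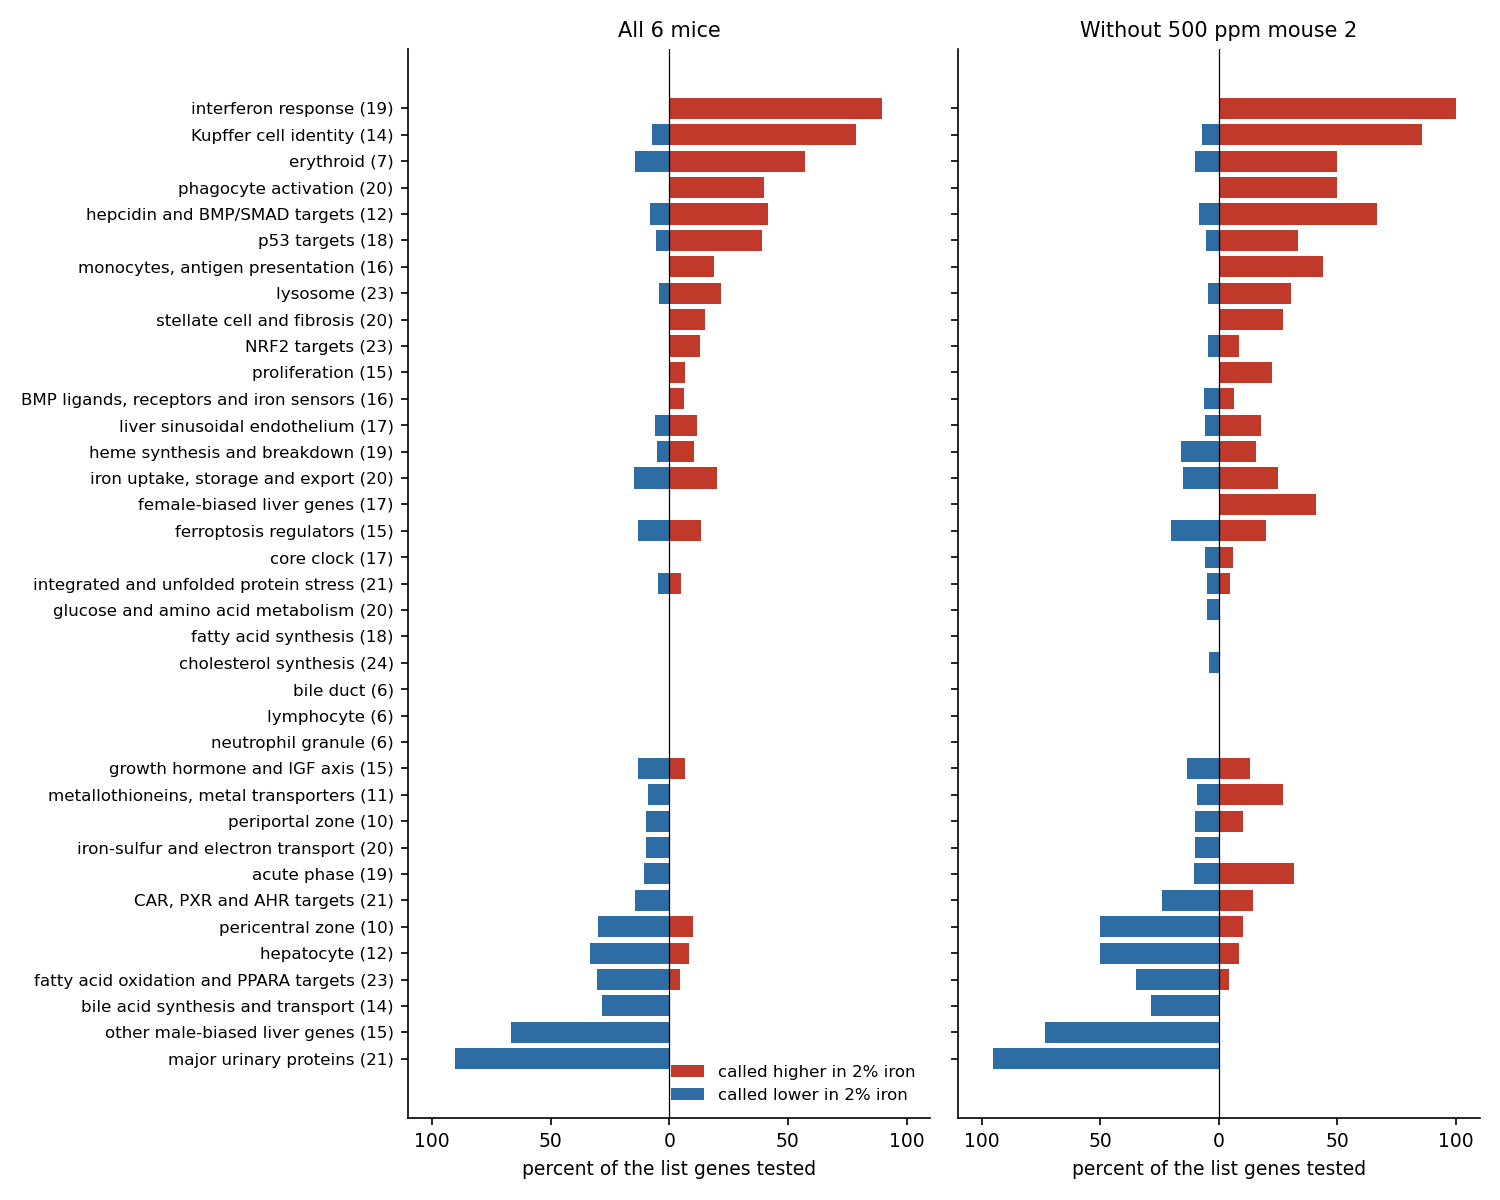
Percent of the tested genes of each list called higher (right, red) or lower (left, blue) in 2% iron, with all 6 mice and without 500 ppm mouse 2; the number of genes tested with all 6 mice is in parentheses. Interferon and Kupffer cell genes top both panels, Mup and other male-biased genes are lowest in both, and female-biased genes have calls in the right panel alone.

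Globin transcripts were higher on 2% iron. Hba-a2 (chr11:32296489-32297298), an alpha globin gene, was at 75.1, 68.5 and 49.4 CPM against 2.32, 4.55 and 4.31 CPM and rose 16.8-fold (log2 4.07 ± 0.47, adjusted p = 0.00023). Hbb-bs, a beta globin gene, was at 130.2, 138 and 92.7 CPM against 4.47, 34.5 and 5.75 CPM (log2 2.96 ± 0.66, adjusted p = 0.011). Near-identical globin copies share reads, so the split between them is uncertain. In all, 4 of 7 erythroid genes rose, among them Hba-a1, whose call was lost without any mouse other than 500 ppm mouse 2, and Hbb-bt, whose call was lost without 500 ppm mouse 1 or 3. Alas2, the erythroid enzyme that starts heme synthesis, fell (17.3, 28.2 and 18.7 CPM against 51.2, 38 and 59.8 CPM; log2 -1.21 ± 0.24, adjusted p = 0.0065). Slc4a1, the band 3 anion exchanger of red cells, was not called with all 6 mice. It had 77, 31 and 33 counts in 2% iron and 0, 30 and 0 counts in 500 ppm. These counts are not scaled to library size, and 500 ppm mouse 2 had the largest library. Klf1, of the same list, was not called either, and its counts overlapped between the groups, with the highest in 500 ppm mouse 2.

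Several further genes stood among the 15 largest rises by the naming rule. Epo, the hormone that drives red cell production, had 35, 6 and 22 counts in 2% iron and 0, 3 and 0 counts in 500 ppm. Its call (adjusted p = 0.023) was lost without 2% iron mouse 1 or 3 or 500 ppm mouse 1 or 3. Ankrd37, an ankyrin-repeat gene induced by hypoxia, had 42, 14 and 76 counts against 4, 5 and 1 (log2 4.05 ± 0.79, adjusted p = 0.0056). Ndufa4l2, a mitochondrial protein also known from hypoxia, was at 29.8, 10.4 and 7.5 CPM against 2.15, 1.06 and 0.79 CPM (log2 3.63 ± 0.80, adjusted p = 0.01). These genes had low counts in 500 ppm, and the 2% iron mice differed several-fold for each. Ffar4, a receptor for long-chain fatty acids, was at 9.19, 2.4 and 3.58 CPM against 0.172, 1.4 and 0.0718 CPM (adjusted p = 0.027), lost without 2% iron mouse 1 or 500 ppm mouse 1 or 3. Kcne4, a potassium channel subunit, was at 1.9, 1.95 and 1.62 CPM against 0.172, 0.242 and 0.144 CPM (adjusted p = 0.0042). Among the smallest adjusted p-values, Mest, an imprinted gene, went from 1.84 ± 0.337 to 8.17 ± 0.493 CPM, and Hectd2, a ubiquitin ligase, from 55.1 ± 20.8 to 8.76 ± 2 CPM (SD, n = 3; adjusted p = 0.0001 for both).

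The largest falls were those of the Mups. Of 21 Mup genes tested, 19 fell and none rose, against 4.75% of all genes called lower, with a median log2 change of -3.53. All 22 Mup genes in the table summed to 2582 to 4378 CPM in the 2% iron mice and 18208 to 38454 CPM in the 500 ppm mice. Mup17 (chr4:61591929-61595871) was at 1.16, 2.58 and 3.75 CPM against 853, 232 and 1042 CPM (log2 -8.15 ± 0.86, adjusted p = 0.00016). Mup7 was at 10.9, 10.7 and 15.4 CPM against 2990, 1745 and 4533 CPM (log2 -7.97 ± 1.04, adjusted p = 0.00051). Mup11 was at 11.3, 15.9 and 12.4 CPM against 2217, 1068 and 2426 CPM (log2 -7.18 ± 0.63, adjusted p = 9.7e-05). Even 500 ppm mouse 2, the lowest of its group, was far above each 2% iron mouse for these genes.

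The falls were unequal along the family. Mup20, the pheromone darcin, was at 327, 719 and 732 CPM against 5757, 3434 and 7273 CPM (log2 -3.21 ± 0.39, adjusted p = 0.00033). Mup3 was at 1005, 1687 and 1174 CPM against 4973, 2999 and 4596 CPM and fell least of the 19 called, by 1.70 on the log2 scale (adjusted p = 0.0028). Mup18 and Mup8 were not called (adjusted p = 0.1 and 0.15), and the call of Mup4 was lost without 2% iron mouse 3. Mup genes lie in a cluster on chromosome 4 and are near-identical, so reads may be split wrongly among them.

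Other male-biased liver genes gave 10 falls among 15 tested and no rise, with a median log2 change of -1.46. Cyp4a12a, which oxidizes arachidonic acid, was at 17.7, 24.2 and 28.2 CPM against 220.1, 149 and 409 CPM (log2 -3.47 ± 0.41, adjusted p = 0.0003). Elovl3, a fatty acid elongase, was at 11.8, 47.1 and 15.9 CPM against 253, 230.2 and 519 CPM (log2 -3.75 ± 0.58, adjusted p = 0.0015). Pitx3, a developmental transcription factor whose annotated span overlaps that of Elovl3 on the other strand, was at 0.248, 0.266 and 0.426 CPM against 5.68, 5.03 and 13.9 CPM. The use of strand in counting is not given in the sources used here, so reads of the 2 genes cannot be told apart. Serpina1e, an antitrypsin isoform with close copies, fell from 3163 ± 738 to 336 ± 71.8 CPM (SD, n = 3; adjusted p = 0.0015), and Hsd3b5, a steroid reductase, from 88.1 ± 33.9 to 16.8 ± 9.87 CPM (SD, n = 3; adjusted p = 0.0055).

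In the growth hormone and IGF list 1 of 15 genes rose and 2 fell, with 2 and 2 without 500 ppm mouse 2. Ghr, the receptor, was at 250.5, 288 and 310.5 CPM against 418, 357 and 477 CPM (log2 -0.56 ± 0.13, adjusted p = 0.013), a call lost without 2% iron mouse 1 or 500 ppm mouse 3. Igfbp2, an IGF binding protein, fell from 284 ± 27.7 to 103.5 ± 28.2 CPM (SD, n = 3; adjusted p = 0.0022). Igf1, the main hepatic target of growth hormone, was at 517, 450.0 and 451 CPM against 420.3, 503 and 426 CPM, with the groups interleaved (adjusted p = 0.83). Bcl6 and Onecut1, regulators of sex-biased liver genes, had adjusted p-values of 0.17 and 0.21.

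Female-biased liver genes set 500 ppm mouse 2 apart from its group. With all 6 mice edgeR called none of 17, 5 of them with an unadjusted p under 0.05, while DESeq2 called 1 and limma 2. Without that mouse edgeR called 7 higher and none lower. Cyp2b9, a female-predominant cytochrome P450, was at 190.2, 104.6 and 132 CPM in 2% iron and at 0.86, 145 and 0.144 CPM in 500 ppm. Without mouse 2 its log2 change was 8.20 (adjusted p = 3.0e-05). Cyp2a4, a steroid hydroxylase, was at 46.6, 23.5 and 43.3 CPM against 0.344, 146 and 1.51 CPM. For Cyp2a4 mouse 2 exceeded every 2% iron mouse, so the log2 change was -0.41 with it and 5.27 without it. Cux2, the female-specific repressor of male-biased genes, was at 12, 6.22 and 13.2 CPM against 1.55, 24 and 0.79 CPM.

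The place of 500 ppm mouse 2 was therefore measured gene by gene, on a scale where 0 is the mean of the other 500 ppm mice and 1 the mean of the 2% iron mice in log2 CPM. Over 2196 genes called without it and tested in both fits, its median place was 0.48, with quartiles of 0.27 and 0.72. It lay nearer the 2% iron mean for 1047 genes (47.7%), beyond that mean for 185 (8.42%), and on the far side of its own group for 164 (7.47%). The median was 0.22 for 20 Mups, 0.16 for 11 other male-biased genes, 0.41 for both 19 interferon and 13 Kupffer cell genes, and 0.65 for 9 BMP/SMAD genes. It was 0.87 for 8 acute phase genes and 1.42 for 7 female-biased genes. The genes were selected for a gap between the other 5 mice, which also sets the ends of the scale, among genes that passed the filter with mouse 2 included, so these places are a description. Its part in the calls was not tested beyond leaving it out.

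**Figure D4:**
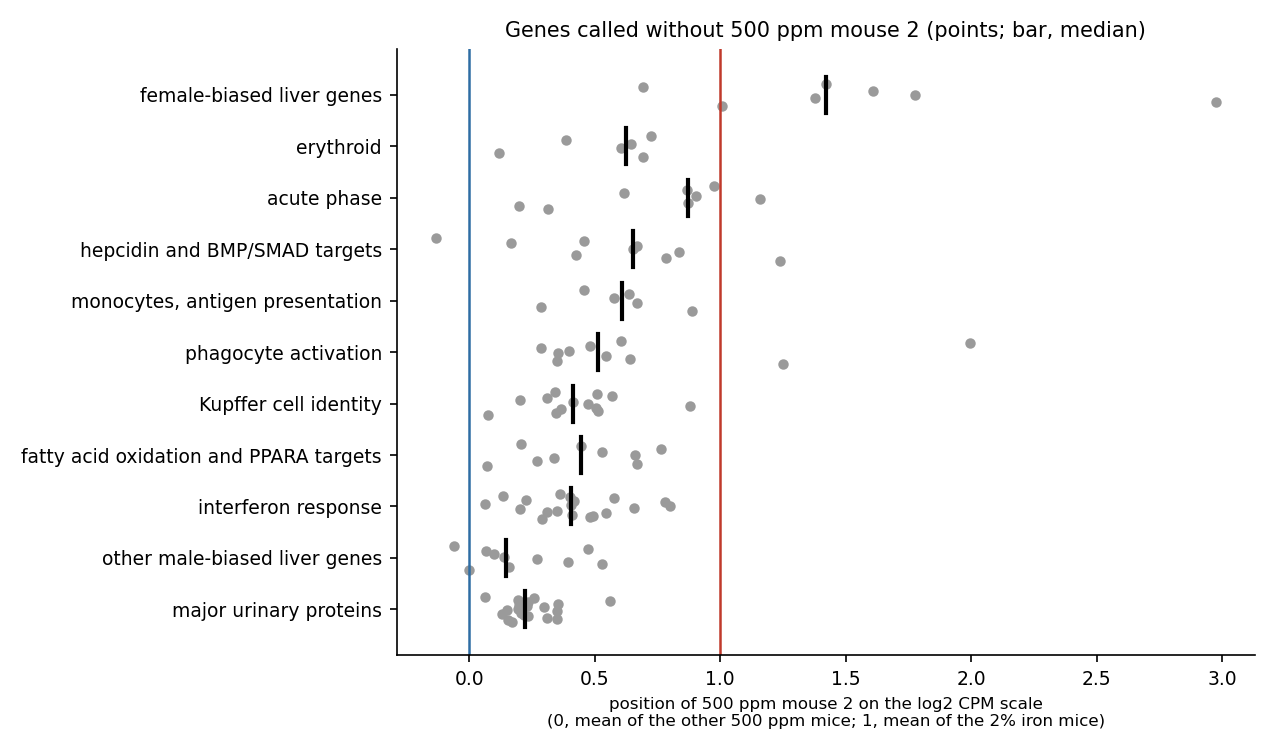
Place of 500 ppm mouse 2 between the mean of the other 500 ppm mice (0, blue line) and the mean of the 2% iron mice (1, red line) in log2 CPM, for list genes called without it (points) with the median of each list (bar). Genes with a small gap between these means are not drawn, so the bars can differ from the medians in the text. Mup and other male-biased genes lie near the blue line, interferon and Kupffer cell genes near the middle, and female-biased genes mostly beyond the red line.

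Genes of hepatocyte metabolism fell in several lists. Of 23 genes of fatty acid oxidation and PPARA targets, 7 fell and 1 rose, with a median log2 change of -0.54. Acaa1b, a peroxisomal thiolase, was at 283, 236 and 169.8 CPM against 907, 572 and 944 CPM (log2 -1.81 ± 0.25, adjusted p = 0.00078). Cpt1a, the gate to mitochondrial oxidation, fell by 0.82 on the log2 scale (adjusted p = 0.011), a call lost without 2% iron mouse 3 or 500 ppm mouse 1. Cyp4a14 and Pdk4, other PPARA targets, overlapped between the groups (adjusted p = 0.9 and 0.64). Apoa4, an apolipoprotein of triglyceride-rich particles, rose (7822, 4877 and 4194 CPM against 1648, 2004 and 1455 CPM; log2 1.73 ± 0.30, adjusted p = 0.0028), while Apoa1, the main protein of HDL, fell from 7171 ± 771 to 4389 ± 369.5 CPM (SD, n = 3; adjusted p = 0.0039).

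Of 10 pericentral genes, those expressed around the central vein, 3 fell and 1 rose, and 5 fell and 1 rose without 500 ppm mouse 2. Cyp2e1, the ethanol oxidase, was at 2954, 3219 and 2840 CPM against 5692, 4147 and 4925 CPM (log2 -0.71 ± 0.13, adjusted p = 0.0041). Glul, glutamine synthetase, averaged 711 ± 51.5 and 866 ± 126 CPM (SD, n = 3; adjusted p = 0.47). Cyp1a2, the caffeine oxidase, was at 96.9, 140.3 and 132 CPM against 193, 155 and 3076 CPM, and Cyp1a1 at 0.248, 0.266 and 0.938 CPM against 0.516, 0.435 and 47 CPM. Both were called lower (adjusted p = 0.032 and 0.047), although the groups overlapped for Cyp1a1, and both calls were lost without 500 ppm mouse 3 or without any 2% iron mouse. Of 10 periportal genes 1 fell, Cyp2f2 (log2 -0.63 ± 0.19), lost without any mouse other than 500 ppm mouse 2. Without that mouse 1 fell and 1 rose.

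Of 14 bile acid genes 4 fell, Cyp8b1, Slco1b2, Baat and Slc27a5, none of them in every fit with a mouse left out. Cyp8b1, which sets the share of cholic acid, was at 328, 328 and 308 CPM against 653, 350.5 and 573 CPM (log2 -0.71 ± 0.20, adjusted p = 0.033). Its call, like those of Slco1b2 and Slc27a5, was lost without any mouse other than 500 ppm mouse 2, and that of Baat without 2% iron mouse 3 or 500 ppm mouse 1. Cyp7a1, the rate-limiting enzyme of bile acid synthesis, was at 101.6, 90.9 and 133 CPM against 341, 142 and 174 CPM (log2 -1.01 ± 0.39, adjusted p = 0.11). EdgeR called none of 24 cholesterol synthesis, 18 fatty acid synthesis and 20 glucose and amino acid genes, with 2, 2 and 6 at an unadjusted p under 0.05. DESeq2 called 2, 0 and 2 of them, limma none, and edgeR without 500 ppm mouse 2 called 1, 0 and 1, all lower. Of 19 acute phase genes 2 fell with all 6 mice, Saa1 and Saa2 of serum amyloid A. Without 500 ppm mouse 2 the same 2 were lower and 6 were higher, Lcn2, Apcs, Serpina3n, Serpina3m, Itih3 and Steap4, and the median log2 change went from 0.18 to 0.41. Saa1 was at 18.7, 10.4 and 17.2 CPM against 126, 37.9 and 26.6 CPM (log2 -2.03 ± 0.59, adjusted p = 0.042), lost without any 2% iron mouse or 500 ppm mouse 1. Saa2 (adjusted p = 0.045) was lost without any mouse other than 500 ppm mouse 2.

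The comparison of 2% iron with cellulose against the 50 ppm diet came from 6 other mice of the same study and the same fit. It called 4026 genes (29.7%), 2083 (15.4%) higher and 1943 (14.3%) lower. Of the 1538 genes called in 2% iron against 500 ppm, 1277 were called there in the same direction and 1 in the opposite direction. The 1277 are 83% of the first set and 31.7% of the second. The labels name a fibre source for the cellulose diet alone, so whether fibre differed besides iron is not known for either comparison. The difference between the 2 comparisons was not tested.

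Mup genes fell in both, with 21 of 21 called lower and a median log2 change of -6.00 in the cellulose comparison. Mup17 changed by -10.84 there and by -8.15 against 500 ppm, and Hsd3b5 by -8.08 and -2.40. Kupffer cell genes gave 12 rises and 1 fall of 14 (median 1.66), and BMP/SMAD targets 9 rises and 1 fall of 12 (median 1.42). Hamp was called in the cellulose comparison (log2 1.42, adjusted p = 0.0038), where the 50 ppm mice stood at 203, 384 and 240.1 CPM. Interferon genes gave 13 rises of 19 with a median of 1.26, against 17 and 1.87 in 2% iron against 500 ppm. Igtp was among the 6 not called there (log2 0.21, adjusted p = 0.63). NRF2 targets gave 12 rises of 23 there, and neutrophil granule genes 6 of 6. Targets of p53 gave 4 rises and 1 fall of 18 there (median 0.087), against 7 and 1 (median 0.38) in 2% iron against 500 ppm.

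**Figure D5:**
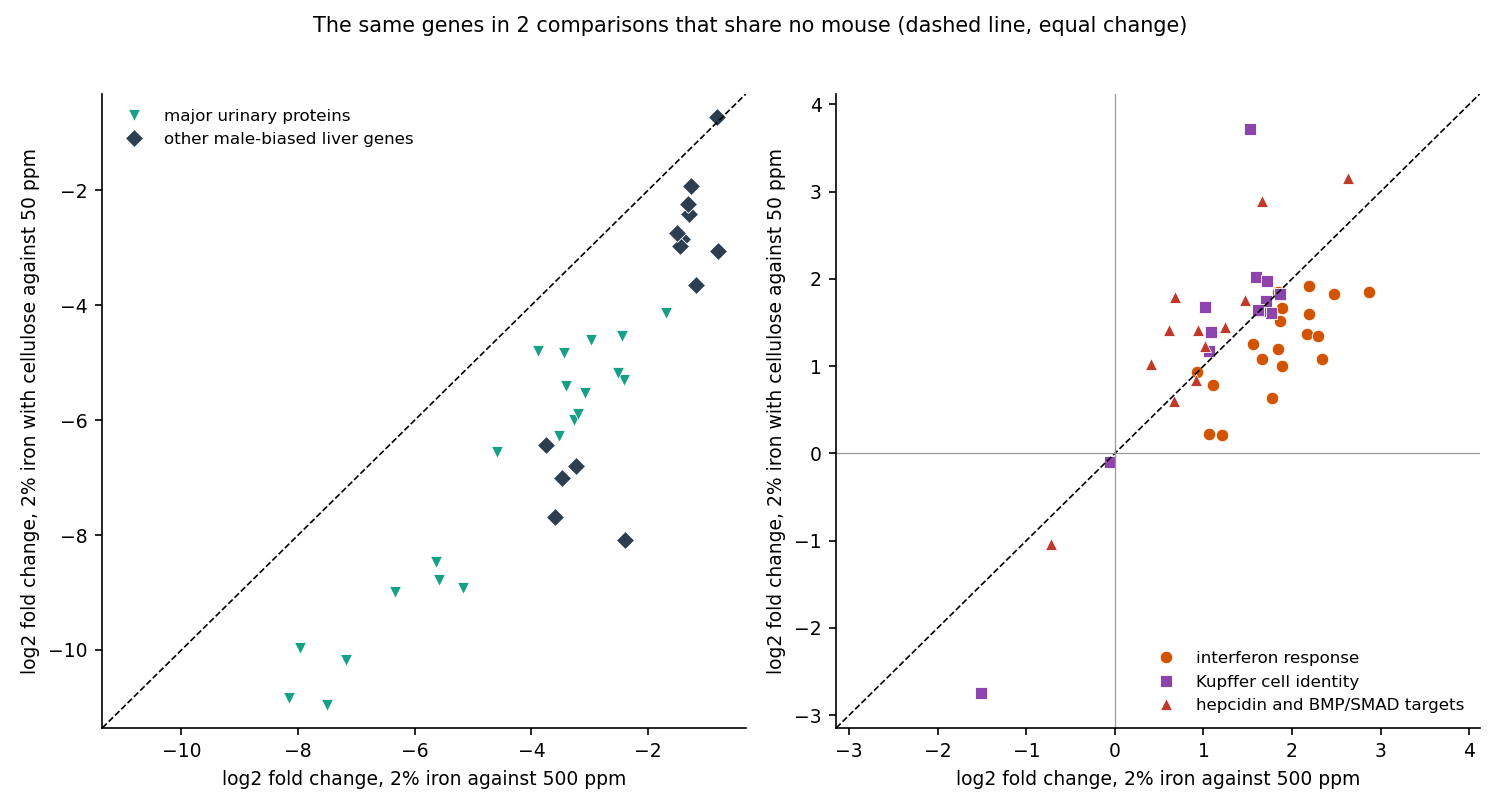
Log2 fold change of list genes in 2% iron against 500 ppm (x axis) and in 2% iron with cellulose against 50 ppm (y axis); each point is a gene, and the dashed line marks equal change. Most Mup and other male-biased genes lie below the line, with larger falls in the cellulose comparison, and interferon genes lie below it except Gbp2 and Ifit2, which lie on it.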

How the data were processed

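Liver mRNA was sequenced from stranded libraries made with the KAPA Stranded mRNA-Seq kit from total RNA of RINe above 8, per the labels' protocols. Kallisto 0.46 and mm10 are named in the submitters' processing notes, and whether the strand was used in counting is not given in the sources used here. The authors deposited estimated counts (expected counts) per gene, of which 26.5% were not whole numbers and which were rounded here, in place of the raw counts that the design had assumed. The authors also deposited TPM, scaled by transcript length to a sum of 1000000 in each library. Of 35274 gene identifiers, 34924 were matched to GENCODE M21 (GRCm38) for names and positions.

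EdgeR 4.0.16 in R 4.3.3 was run on the 15 diet libraries in 5 groups, with TMM factors, its default filter on low counts, the two-sided quasi-likelihood test and Benjamini-Hochberg adjustment over all genes tested. Log2 CPM used a prior count of 2. For a single value, the smallest exact two-sided permutation p of 3 mice against 3 is 0.1. The scripts were tested on simulated data. Alternatives used DESeq2 1.42.0, limma 3.58.1 on log2(TPM + 1) and log2(TPM + 0.1), other factors and filters, the compared groups alone, and each mouse left out. The members and gene lists were chosen with earlier results of these data known. Named genes were list genes; the 15 largest rises and 15 largest falls called both with all 6 mice and without 500 ppm mouse 2, with a mean of at least 1 CPM in the higher group, no overlap and no predicted gene; the 10 smallest adjusted p-values; and the 5 genes farthest above and 5 farthest below its group for 500 ppm mouse 2. Some genes that these rules select are not reported here, and the strain panel was not used.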

Additional observations from a re-analysis of the deposited data

How the results depend on the processing

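No paired analysis was possible because replicate numbers were given in accession order and pair no mice. Genes called in 2% iron against 500 ppm numbered 924 with the compared groups alone, 910 with limma on log2(TPM + 1) and 862 on log2(TPM + 0.1), against 1538, and 1753 with DESeq2. Other factors and filters gave 1395 to 1581. Leaving out 1 mouse gave 788 to 2203: 990, 1149 and 852 without 2% iron mouse 1, 2 and 3, and 788, 2203 and 892 without 500 ppm mouse 1, 2 and 3. The share of higher calls was 58.1% with edgeR on all 15 diet libraries, and 64.5% with the compared groups alone. It was 74.7% and 73.8% with limma on log2(TPM + 1) and log2(TPM + 0.1), and 52.7% with DESeq2. In the cellulose comparison limma called 2657 and 2546, against 4026, and the TPM scale moved the median of all genes by 0.10 and 0.13. The 230 named genes followed were taken because they were called with all 6 mice or without 500 ppm mouse 2. Of them 163 were called with all 6 mice, a share that follows in part from that selection. Among the 592 distinct list genes tested, 148 were called. Of the 163, 89 were called under every alternative run for single genes. Those alternatives were RLE factors in place of TMM, the compared groups alone, DESeq2, limma on log2(TPM + 1) and each mouse left out. The direction reversed 15 times, over 7 of the named genes. With limma on log2(TPM + 1) the log2 change was 0.39 for Cd63, 2.06 for Cyp2a4 and 0.25 for Sult3a1. Leaving out 1 mouse, log2 changes ranged from -0.19 to 0.46 for Ccl9, -0.74 to 1.48 for Cd63, -0.35 to 3.18 for Cux2, -5.90 to 0.036 for Cyp1a1, -0.98 to 5.27 for Cyp2a4, -4.30 to 3.95 for Cyp2b13 and -1.20 to 3.78 for Sult3a1. The cause was not tested. With 3 mice a group, smaller changes may go uncalled.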

Other observations

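Some values rested on single mice. In 2% iron mouse 1 the fatty acid synthesis genes summed to 10146 CPM and the cholesterol synthesis genes to 1633 CPM, while the other 2% iron mice had 28934 and 34867 CPM and 3404 and 4107 CPM. Core clock genes summed to 819.8 CPM in 500 ppm mouse 2 and to 491 to 611 CPM in the other 5 mice.

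The genes farthest above the group in 500 ppm mouse 2 included Cyp2b13, at 52.8 CPM where the other 500 ppm mice had 0 and 0.144 CPM. Zbed6, a transposon-derived repressor, was among those farthest below, at 0.0484 CPM against 1.55 and 4.31 CPM. Its values also varied in the other group, with 0, 47 and 21 counts in the 2% iron mice and 1 count in 500 ppm mouse 2. Mt1, a metallothionein, was at 212 CPM in that mouse, against 35.3 and 10.5 CPM in its group and 325, 99.7 and 115.3 CPM in 2% iron.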
